A study of Homo sapiens with 18 samples.

Results

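IL17B, UCP2, CLCN6 and C6orf223 are 4 genes outside lipid synthesis, found by their symbols among the 35238 rows of a gene count table from HepG2 cells, a human liver tumour line. They were chosen by their measured fold changes in these data, lower with the small molecule 6N and higher with the phospholipid DLPC, so their values in those 2 comparisons are given as a description and without a test. The 18 libraries formed 6 groups of 3: 6N at 10 µM, 10CA at 10 µM, 6N-10CA at 10 µM, DLPC (dilauroylphosphatidylcholine) at 100 µM, the vehicle ethanol at 0.1% and the vehicle DMSO at 0.1%. All groups were the same line and were treated in medium with charcoal-stripped serum. 6N, 10CA and 6N-10CA were set against DMSO and DLPC against ethanol, and because the doses differ, values for DLPC and for the small molecules stand side by side. The study concerns LRH-1, a nuclear receptor encoded by NR5A2 which in liver acts on genes of bile acid and cholesterol metabolism. Levels are given as CPM, counts scaled to a common library size, and NR5A2 averaged 4.01 CPM over all libraries.

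IL17B encodes a secreted cytokine of the interleukin-17 family, which signals through a receptor that contains the product of IL17RB. UCP2 encodes a carrier of the inner mitochondrial membrane, related to the uncoupling protein of brown fat, which is known for exporting metabolites and limiting reactive oxygen species. CLCN6 encodes an exchanger of chloride and protons in late endosomes. C6orf223 is annotated as protein coding in GENCODE release 29 and as the long noncoding RNA LINC03040 in RefSeq, and no role is given for it here. SREBPs, to which the text returns, are membrane-bound transcription factors that switch on genes of sterol and fatty acid synthesis when cellular sterol is low.

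On GRCh38 IL17B lies on chromosome 5 from 149371324 to 149404202 on the minus strand, UCP2 on chromosome 11 from 73974667 to 73983307 on the minus strand, CLCN6 on chromosome 1 from 11806096 to 11848079 on the plus strand, and C6orf223 on chromosome 6 from 44000580 to 44005958 on the plus strand. Because the 4 genes were chosen for moving in the same directions, the sequence before their starts was read from a RefSeq table (GRCh38.p14), in which all 4 were found, C6orf223 under its newer symbol. Searched on both strands in the 250 bases before each start were an E-box (CACGTG), a sterol regulatory element (TCACNCCAC), a site bound by LRH-1 and its relatives (CAAGGNCA) and a CCAAT box (CCAAT). None of these motifs overlaps another in the sequences shown. The stretches below run 5′ to 3′ on the strand of the gene, with matches in capitals, and leave out bases that GENCODE places in an exon. For CLCN6 all 250 bases were exonic, so that none are given.
IL17B: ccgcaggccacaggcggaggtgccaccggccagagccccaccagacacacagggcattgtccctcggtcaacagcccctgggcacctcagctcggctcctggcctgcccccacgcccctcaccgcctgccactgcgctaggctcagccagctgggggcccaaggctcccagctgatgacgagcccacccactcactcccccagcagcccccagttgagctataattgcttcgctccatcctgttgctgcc
UCP2: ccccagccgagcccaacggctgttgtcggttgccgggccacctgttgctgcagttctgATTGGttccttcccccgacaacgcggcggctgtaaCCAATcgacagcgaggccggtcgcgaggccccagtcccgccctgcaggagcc
C6orf223: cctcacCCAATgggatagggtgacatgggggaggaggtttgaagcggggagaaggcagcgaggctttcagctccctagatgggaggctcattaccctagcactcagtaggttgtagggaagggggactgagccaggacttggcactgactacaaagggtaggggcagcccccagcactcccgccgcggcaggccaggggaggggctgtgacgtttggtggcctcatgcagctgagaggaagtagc
The IL17B stretch is chr5:149379293-149379542, before the inner of 2 annotated starts, and held no match, nor did the window before the outer start. The UCP2 stretch is chr11:73983308-73983452, with CCAAT letters on both strands, at -192 to -188 and -157 to -153 from the outer RefSeq start. That start had 0 GENCODE starts within 100 bases, though the stretch adjoins the GENCODE end of the gene at 73983307. The window of the inner UCP2 start, with 5 GENCODE starts within 100 bases, held no match. The CLCN6 window held an E-box at -20 to -15. The C6orf223 stretch is chr6:44000335-44000579, with CCAAT letters at -244 to -240. Of 35116 promoter windows of the same length, 32.01% held CCAAT, 6.345% CACGTG, 4.505% CAAGGNCA and 0.8828% TCACNCCAC. The letters of the sterol regulatory element and of the LRH-1 site were in no window of the 4 genes.

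The group means of IL17B ran from 9.94 CPM with 6N to 34.2 CPM with DLPC. Its level was 12.7, 8.49 and 8.61 CPM in the 6N libraries, 21.8, 18.6 and 19.7 CPM with 10CA and 25.8, 22.2 and 24.2 CPM with 6N-10CA. It was 37.3, 31.2 and 34.2 CPM with DLPC, 27.1, 22.6 and 24.5 CPM with ethanol, and 24.6, 24.6 and 24.8 CPM with DMSO. All 6N libraries lay below every other library, and all DLPC libraries above every other. Between them the 10CA libraries lay below the overlapping 6N-10CA, ethanol and DMSO libraries. The mean was 9.94 ± 2.42 CPM with 6N against 24.7 ± 0.14 CPM with DMSO (SD, n = 3 each), a log2 fold change of -1.31 (SE 0.12, 95% interval -1.56 to -1.06). With DLPC it was 34.2 ± 3.03 CPM against 24.7 ± 2.27 CPM with ethanol, a log2 fold change of 0.47 (SE 0.11, 95% interval 0.23 to 0.70). Relative to the mean, the 6N libraries were the most spread, with a coefficient of variation of 24.3% against 0.562% to 9.18% in the other groups, and replicate 1 was the highest of them.

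UCP2 was the most abundant of the 4. Its level was 46.7, 46.5 and 40.1 CPM with 6N, 59.3, 56.5 and 52.4 CPM with 10CA and 68.8, 64.8 and 60.3 CPM with 6N-10CA. It was 79.3, 81.6 and 79.4 CPM with DLPC, 61.8, 61.1 and 57.8 CPM with ethanol, and 57.6, 57.0 and 54.4 CPM with DMSO. DLPC libraries again stood above and 6N libraries below every other library. From high to low the groups ran DLPC, 6N-10CA, ethanol, DMSO, 10CA and 6N, with overlap between 6N-10CA and ethanol and between DMSO and 10CA. UCP2 averaged 44.4 ± 3.73 CPM with 6N and 56.3 ± 1.70 CPM with DMSO (SD, n = 3 each), a log2 fold change of -0.34 (SE 0.06). With DLPC it averaged 80.1 ± 1.29 CPM and with ethanol 60.2 ± 2.11 CPM, a log2 fold change of 0.41 (SE 0.06).

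CLCN6 kept to a narrower range. Its level was 23.8, 22.8 and 26.6 CPM with 6N, 27.9, 32.9 and 30.3 CPM with 10CA and 36.0, 34.5 and 37.6 CPM with 6N-10CA. It was 44.3, 40.6 and 42.9 CPM with DLPC, 33.4, 32.9 and 33.1 CPM with ethanol, and 30.5, 33.1 and 34.4 CPM with DMSO. The 6N-10CA libraries lay between the DLPC libraries and the rest, and the ethanol, DMSO and 10CA libraries overlapped. The log2 fold change was -0.42 (SE 0.07) for 6N, from means of 24.4 ± 1.96 CPM with 6N and 32.7 ± 2.01 CPM with DMSO (SD, n = 3 each). It was 0.36 (SE 0.07) for DLPC, from 42.6 ± 1.89 CPM with DLPC and 33.1 ± 0.27 CPM with ethanol.

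C6orf223 was far less abundant. Its libraries varied least with 6N, with a coefficient of variation of 3.03%, and by 22.1% to 39.8% in the other groups. The 6N libraries held 49, 45 and 49 counts, or 1.60, 1.51 and 1.58 CPM, the 10CA libraries 4.25, 2.44 and 3.58 CPM and the 6N-10CA libraries 7.72, 3.70 and 4.56 CPM. The DLPC libraries held 270, 179 and 255 counts, or 9.71, 6.19 and 7.96 CPM, the ethanol libraries 5.94, 3.35 and 3.09 CPM, and the DMSO libraries 153, 91 and 90 counts, or 4.43, 2.98 and 2.94 CPM. The 6N libraries were below every other library, whereas each of the other neighbours in the order of levels overlapped, DLPC and 6N-10CA included. It averaged 1.56 ± 0.05 CPM with 6N and 3.45 ± 0.85 CPM with DMSO (SD, n = 3 each), a log2 fold change of -1.15 (SE 0.32, 95% interval -1.83 to -0.47). For DLPC the means were 7.95 ± 1.76 CPM with DLPC and 4.13 ± 1.58 CPM with ethanol, a log2 fold change of 0.94 (SE 0.27, 95% interval 0.37 to 1.51).

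**Figure D1:**
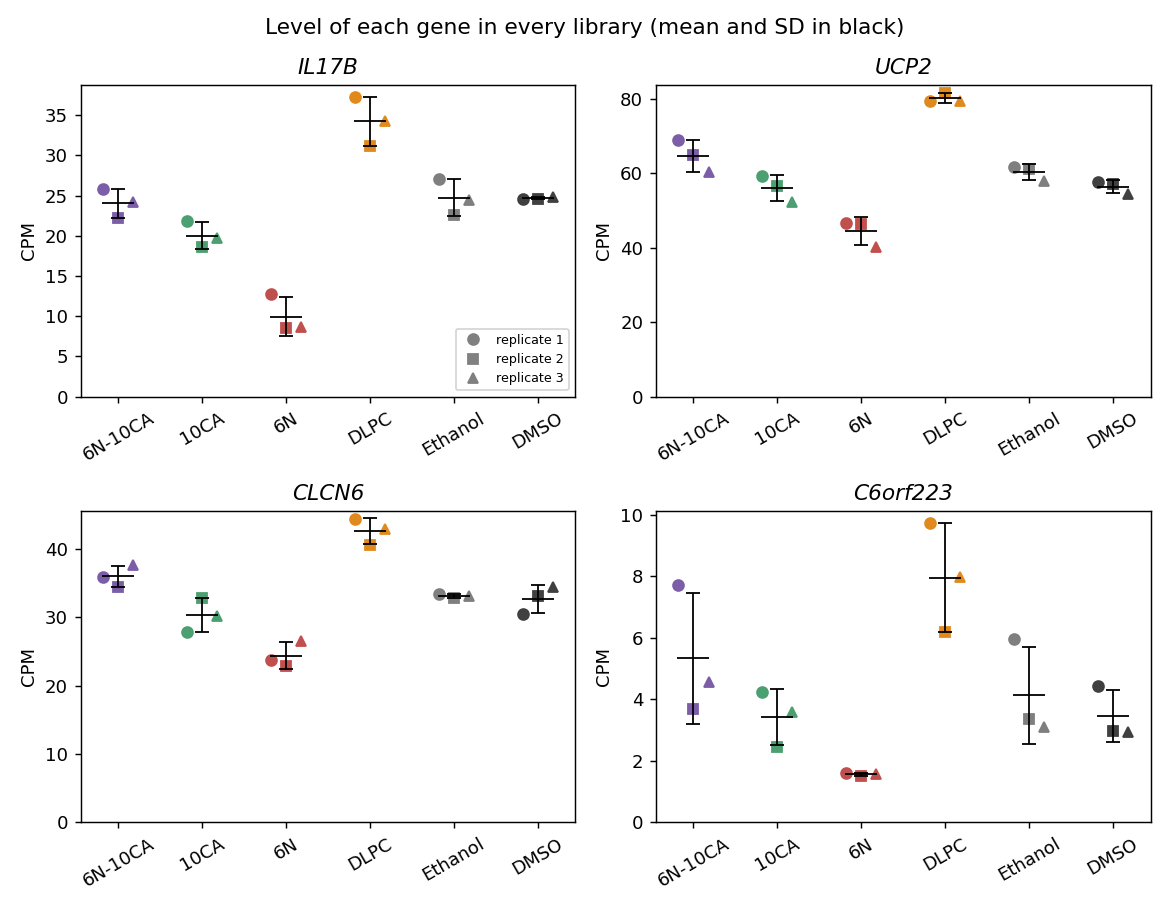
Levels of the 4 genes in CPM (vertical axes, starting at 0) in each of the 18 libraries; points are libraries, bars the mean and SD of 3 libraries per group. DLPC has the highest and 6N the lowest mean in each panel, and C6orf223 stays between 1.51 and 9.71 CPM.

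Per length of exon, UCP2 and IL17B were close in level and the other genes lower. Over all annotated exons the group means of UCP2 ran from 13.7 to 24.8 CPM per kilobase and those of IL17B from 8.21 to 28.3 CPM per kilobase, so that IL17B was the higher of the pair with DLPC and UCP2 with 6N. CLCN6 ran from 2.99 to 5.21 and C6orf223 from 0.40 to 2.03 CPM per kilobase. These lengths join the exons of all isoforms, and which isoforms were used in HepG2 is not known from gene counts.

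Relative to all measured genes, the choice of these 4 picked genes of different size of response. Among 12611 genes of at least 1 CPM ranked by the DLPC response less the 6N response, C6orf223 stood at 7, IL17B at 11, CLCN6 at 113 and UCP2 at 135; the rule names no threshold. In all 4 genes the 3 libraries of 6N lay below the 3 of DMSO, as in 7.31% of the 14797 tested genes, and the 3 of DLPC above the 3 of ethanol, as in 9.79%. A gene is called here when its p from the quasi-likelihood test of edgeR, adjusted over all tested genes by Benjamini-Hochberg, is under 0.05. By that rule 0.845% of tested genes were called lower with 6N and 0.629% higher with DLPC. Both held for 21 genes, or 0.142%, which are 16.8% of the 125 called lower with 6N and 22.6% of the 93 called higher with DLPC. The opposite pattern, called higher with 6N and lower with DLPC, held for 0 genes, or 0%. Of the 21, 18 were genes other than the chosen ones. The rest were IL17B, UCP2 and CLCN6, whose place among the 21 follows from the choice. C6orf223 was not among the 21 in this fit. Being in or out of the 21 is no test of a chosen gene, since its values in these comparisons chose it.

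The other genes of this pattern were mostly enzymes of lipid synthesis. Of these 18, 12 belonged to a list of 33 SREBP target genes of sterol and fatty acid synthesis, of which 32 were tested, and 6 did not. By size of the DLPC response minus the 6N response they were led by ACSS2, an acetyl-CoA synthetase, with a log2 difference of 1.22, HMGCS1, which makes HMG-CoA, at 1.20, MVD at 1.17, the desaturase gene SCD at 1.13, RP11-404G16.2 at 1.12, the acyl-CoA synthetase gene ACSL3 at 1.02, and LSS, the lanosterol synthase, at 1.00. The remaining genes outside the list, named after their values were seen, were SLCO4C1, ACSL4, SNX33 and ACAT2. Leaving out ethanol replicate 2 or DLPC replicate 1 brought the 21 down to 13, and RLE scaling gave 20. As a description, the difference of the responses was 1.78 (SE 0.17) for IL17B, 0.78 (SE 0.10) for CLCN6 and 0.75 (SE 0.09) for UCP2. For C6orf223, not among the 21, it was 2.09 (SE 0.42).

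**Figure D2:**
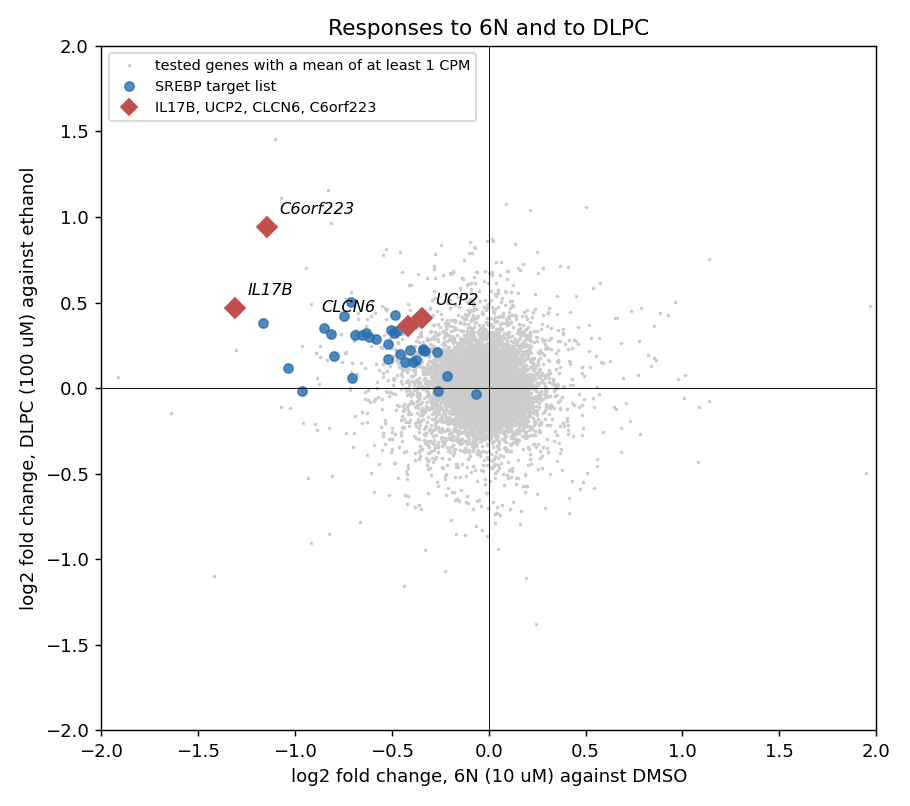
Log2 fold change with 6N against DMSO (horizontal) and with DLPC against ethanol (vertical) for tested genes averaging 1 CPM or more; blue points are the SREBP target list and red diamonds the 4 chosen genes. All 4 diamonds lie in the upper left part, C6orf223 at -1.15 and 0.94, IL17B at -1.31 and 0.47.

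The comparison of 6N-10CA with 10CA shares no library with the values that chose the genes. At the matched dose of 10 µM, UCP2 averaged 64.7 ± 4.25 CPM with 6N-10CA and 56.1 ± 3.47 CPM with 10CA (SD, n = 3 each), a log2 fold change of 0.21 (SE 0.06, 95% interval 0.08 to 0.34; adjusted p = 0.2776). CLCN6 averaged 36.0 ± 1.55 CPM with 6N-10CA and 30.4 ± 2.50 CPM with 10CA, a log2 fold change of 0.25 (SE 0.07, 95% interval 0.10 to 0.39; adjusted p = 0.22). IL17B averaged 24.0 ± 1.80 CPM with 6N-10CA and 20.0 ± 1.64 CPM with 10CA, a log2 fold change of 0.26 (SE 0.11, 95% interval 0.02 to 0.50; adjusted p = 0.5474). In these 3 genes every 6N-10CA library lay above every 10CA library, as in 6.51% of tested genes. C6orf223 averaged 5.33 ± 2.12 CPM with 6N-10CA and 3.42 ± 0.91 CPM with 10CA, with overlapping libraries and a log2 fold change of 0.63 (SE 0.28, 95% interval 0.04 to 1.22; adjusted p = 0.5605); without 6N-10CA replicate 1 it was 0.26.

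By edgeR, 0 of the 4 genes were called between 6N-10CA and 10CA, where 34 genes or 0.23% were called in all. Libraries of the same replicate number deviated together in these groups. In a fit blocked on that number 3 of the 4 were called higher with 6N-10CA, where 1.4% of tested genes were. They were UCP2 at 0.21 (SE 0.04; adjusted p = 0.01044), CLCN6 at 0.25 (SE 0.06; adjusted p = 0.03912) and C6orf223 at 0.61 (SE 0.15; adjusted p = 0.0359). IL17B stood at 0.26 (SE 0.08; adjusted p = 0.07571) with the block.

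Against DMSO, the 4 genes differed from one another in where 6N-10CA placed them. UCP2 averaged 64.7 ± 4.25 CPM with 6N-10CA and 56.3 ± 1.70 CPM with DMSO (SD, n = 3 each), a log2 fold change of 0.20 (SE 0.06, 95% interval 0.07 to 0.33; adjusted p = 0.2421). CLCN6 stood at 0.14 (SE 0.07, 95% interval -0.00 to 0.29; adjusted p = 0.5236). In both genes every 6N-10CA library lay above every DMSO library, as in 7.53% of tested genes, for CLCN6 by a margin of 34.5 CPM in the lowest 6N-10CA library and 34.4 CPM in the highest DMSO library. IL17B had a log2 fold change of -0.04 (SE 0.11, 95% interval -0.28 to 0.20; adjusted p = 0.9551). C6orf223 stood at 0.61 (SE 0.28, 95% interval 0.02 to 1.20; adjusted p = 0.4817), and at 0.25 without 6N-10CA replicate 1.

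Of the 4 genes 0 were called for 6N-10CA against DMSO by edgeR, where 39 genes or 0.264% were called in all. With the replicate block 2 of the 4 were called higher, against 1.68% of tested genes. These were UCP2 at 0.20 (SE 0.04; adjusted p = 0.01095) and C6orf223 at 0.60 (SE 0.15; adjusted p = 0.03278). CLCN6 (adjusted p = 0.2506) and IL17B (adjusted p = 0.8571) did not pass. This comparison shares its DMSO libraries with the 6N values that chose the genes.

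With 10CA against DMSO, IL17B was the member with a separation between libraries. It averaged 20.0 ± 1.64 CPM with 10CA and 24.7 ± 0.14 CPM with DMSO (SD, n = 3 each), a log2 fold change of -0.30 (SE 0.11, 95% interval -0.54 to -0.06; adjusted p = 0.6666). All 3 libraries of 10CA were below the 3 of DMSO, as in 6.3% of tested genes. UCP2 had a log2 fold change of -0.01 (95% interval -0.14 to 0.12; adjusted p = 0.9852), CLCN6 of -0.11 (-0.25 to 0.04; adjusted p = 0.8004) and C6orf223 of -0.02 (-0.63 to 0.59; adjusted p = 0.9914). In edgeR 0 genes, or 0%, were called in all, with 1033 at an unadjusted p under 0.05, 13 called by DESeq2 and 0 by limma-voom. The comparison of 10CA with DMSO also shares its DMSO libraries with the 6N values that chose the genes.

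The vehicles themselves were set side by side as the background of these values. Libraries of both vehicles entered the comparisons that chose the genes. With ethanol against DMSO the log2 fold change was 0.00 (SE 0.11) for IL17B, 0.10 (SE 0.06) for UCP2, 0.02 (SE 0.07) for CLCN6 and 0.25 (SE 0.29) for C6orf223, each with an adjusted p of 1. Every ethanol library of UCP2 lay above every DMSO library, at 57.8 CPM or more with ethanol and 57.6 CPM or less with DMSO, as in 4.06% of tested genes. In all 0 genes, or 0%, were called by edgeR, with 479 at an unadjusted p under 0.05, 13 called by DESeq2 and 0 by limma-voom.

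Between the small molecules at 10 µM the other differences involve 6N and are given as a description. With 6N-10CA against 6N the log2 fold change was 1.27 (SE 0.12) for IL17B, 0.54 (SE 0.06) for UCP2, 0.56 (SE 0.07) for CLCN6 and 1.76 (SE 0.32) for C6orf223. The replicate block gave 1.28 (SE 0.08), 0.54 (SE 0.04), 0.56 (SE 0.06) and 1.72 (SE 0.18) in the same order. With 10CA against 6N the log2 fold change was 1.01 (SE 0.12) for IL17B, 0.34 (SE 0.06) for UCP2, 0.31 (SE 0.07) for CLCN6 and 1.13 (SE 0.32) for C6orf223. In all 4 genes the libraries of 6N lay below those of 6N-10CA, as in 9.03% of tested genes, and below those of 10CA, as in 8.54%.

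**Figure D3:**
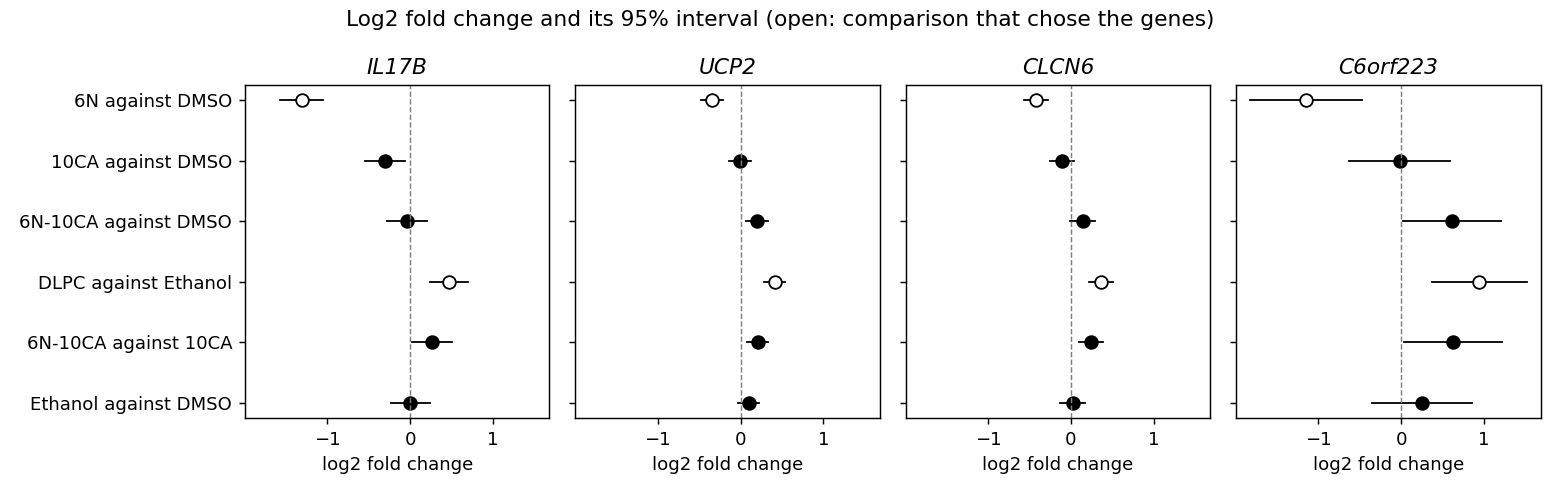
Log2 fold changes with 95% intervals of the 4 genes in each comparison, on a common horizontal axis; each point is the fitted value from 3 libraries a group, open for the comparisons that chose the genes. The open points lie below 0 for 6N and above 0 for DLPC in all panels, which follows from the choice of the genes and is no test. Intervals for ethanol against DMSO cross 0.

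Among the partners of IL17B few passed the test. Of 15 IL-17 ligands, receptors and adapters other than IL17B, 11 were tested. With 6N 0 rose and 0 fell, at a median log2 fold change of 0.01 (0.00 over all tested genes), where 1.14% of tested genes were called. IL17RB, the receptor gene, averaged 107.0 CPM and had a log2 fold change of 0.23 (SE 0.07; edgeR adjusted p = 0.205) with 6N and of -0.19 (SE 0.07; adjusted p = 0.2375) with DLPC. The DLPC response minus the 6N response of IL17RB was -0.43 (SE 0.10; edgeR adjusted p = 0.04879), the 1 call among the 11 in that contrast, where 1.22% of tested genes were called; it was lost on leaving out 10 of the 12 libraries in turn. IL17D, another ligand, stood at -0.03 (SE 0.13) with 6N and 0.37 (SE 0.13; adjusted p = 0.1995) with DLPC. With 10CA against 6N, IL17RB was lower, at -0.35 (SE 0.07; edgeR adjusted p = 0.0133). With DLPC 0 of the 11 rose and 1 fell, where 1.04% of tested genes were called. It was the shared receptor chain gene IL17RA at -0.27 (SE 0.06; edgeR adjusted p = 0.04127), a call that was lost on leaving out 5 of the 6 libraries in turn. Of 20 target genes of IL-17 signalling 8 were tested, of which 0 passed with 6N and 2 fell with DLPC, NFKBIZ, which encodes a regulator of NF-kB, at -0.50 (SE 0.08; edgeR adjusted p = 0.002632) and the chemokine gene CXCL2, at a mean of 0.23 CPM. The count of 2 was 1 on leaving out 5 of the 6 libraries in turn. With the replicate block 1 of the 8 fell with 6N and 4 fell with DLPC. Of the 11 ligands, receptors and adapters, 1 rose with 6N and 2 fell with DLPC in that fit. There 3.72% of tested genes were called with 6N and 6.74% with DLPC.

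The relatives of UCP2 are its family of mitochondrial carriers. Of 18 uncoupling proteins and related mitochondrial carriers 16 were tested, and with 6N 0 rose and 1 fell, where 1.14% of all tested genes were called. It was the citrate carrier gene SLC25A1 at -0.23 (SE 0.05; edgeR adjusted p = 0.04567), a call that was lost under RLE scaling and on leaving out 5 of the 6 libraries in turn. With DLPC 0 rose and 0 fell, where 1.04% were called in all, and SLC25A1 stood at 0.16 (SE 0.05; adjusted p = 0.1838). With the replicate block 1 of the 16 fell with 6N and 1 rose with DLPC, where 3.72% and 6.74% were called in all. UCP3, the closest relative of UCP2 and the nearest coding gene on one side of it, had between 0 and 9 counts per library and was not tested.

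The relatives of CLCN6 are channels and exchangers of the CLC family. Of 11 other CLC channels, exchangers and their subunits 8 were tested, and 0 rose and 0 fell with 6N or with DLPC, where 1.14% and 1.04% of all tested genes were called. CLCN7, the lysosomal exchanger and at 145.7 CPM abundant in these cells, had a log2 fold change of 0.01 (SE 0.05) with 6N and -0.03 (SE 0.05) with DLPC. CLCN3 stood at -0.09 (SE 0.08) and 0.02 (SE 0.08) in the same comparisons. Of 19 other ion transporters of endosomes and lysosomes 18 were tested, with 0 rising and 0 falling in both. With the replicate block 0 of the 8 CLC genes were called with 6N and 1 fell with DLPC. Of the 18 transporters 0 were called in either. In that fit 3.72% of tested genes were called with 6N and 6.74% with DLPC.

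The SREBP target list, in contrast, moved in the directions of the 4 genes in both comparisons. With 6N 31 of its 32 tested genes fell and 0 rose, at a median log2 fold change of -0.51, where 0.845% of all tested genes were called lower. With DLPC 12 rose and 0 fell, at a median of 0.23, where 0.629% were called higher. All tested genes had a median of 0.00 in each. For 6N-10CA against 10CA 6 rose and 0 fell (median 0.19), where 0.23% of all tested genes were called. With the replicate block 18 rose, where 1.4% were called higher. The count of 6 was 3 without 10CA replicate 1, 1 without 10CA replicate 3, 2 without 6N-10CA replicate 1 and 3 without 6N-10CA replicate 3. For 6N-10CA against DMSO 0 were called (median 0.12), where 0.264% of all tested genes were. With the block 12 rose, where 1.68% were called higher. For 10CA against DMSO 0 were called, at a median of -0.07, where 0% of all tested genes were called. The list was known from earlier results to move in these data and is no independent evidence of its direction.

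Genes whose levels ran most like those of the 4 were sought among 12607 other genes of at least 1 CPM, by the Pearson correlation r of log2 CPM over the 18 libraries. The libraries share treatments and replicate numbers, and 6N and DLPC chose the genes, so each r is a description, given also over the 12 libraries without 6N and DLPC. Among the 5 genes nearest to IL17B were SYNE4, which encodes a protein of the outer nuclear membrane, at r = 0.967 (0.929 over 12 libraries), and the sterol synthesis genes SQLE at 0.964 (0.743) and FDPS at 0.961 (0.691). ACSL3 followed at 0.959 and was at 0.279 over the 12. Over the 12 libraries SYNE4 ranked 4, SQLE 297, FDPS 485 and ACSL3 3603 among the genes compared. Of the 50 genes nearest to IL17B over the 18 libraries, 25 were in the SREBP list, which had 32 genes among the 12607. This count and those below include the 6N and DLPC libraries that chose the genes, and were not made over the 12.

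The 5 genes nearest to UCP2 were ACSS2 (r = 0.950, and 0.854 over the 12 libraries), DHCR7, the last enzyme of cholesterol synthesis (0.948 and 0.835), ACLY, which makes acetyl-CoA from citrate (0.943 and 0.733), ACAT2 (0.938 and 0.871) and RP11-404G16.2 (0.935 and 0.671). Among the 5 nearest to CLCN6 were the lipid droplet gene PNPLA3 (0.963 and 0.913), SQLE (0.948 and 0.811), ACLY (0.945 and 0.676) and MVD (0.944 and 0.846). The SREBP list gave 19 of the 50 nearest genes of UCP2 and 24 of those of CLCN6. C6orf223 ran most like ARRDC3, an arrestin-like protein (0.963 and 0.885), SREBF2, the gene of SREBP2 (0.960 and 0.857), ALDOC, an aldolase (0.937 and 0.851), ACSS2 (0.934 and 0.734) and DHCR7 (0.934 and 0.747), with 13 of the list among its nearest 50. Over the 12 libraries the genes named for UCP2 ranked 6 to 290, those for CLCN6 1 to 127 and those for C6orf223 25 to 418.

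The 32 measured SREBP targets had a median r of 0.920 with IL17B, 0.875 with UCP2, 0.907 with CLCN6 and 0.831 with C6orf223, whereas all genes had medians of -0.02 to 0.00. Over the 12 libraries without 6N and DLPC these medians were 0.376, 0.461, 0.648 and 0.362 in the same order of genes. The 4 genes correlated with one another at 0.844 to 0.906 over 18 libraries and at 0.189 to 0.688 over 12.

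**Figure D4:**
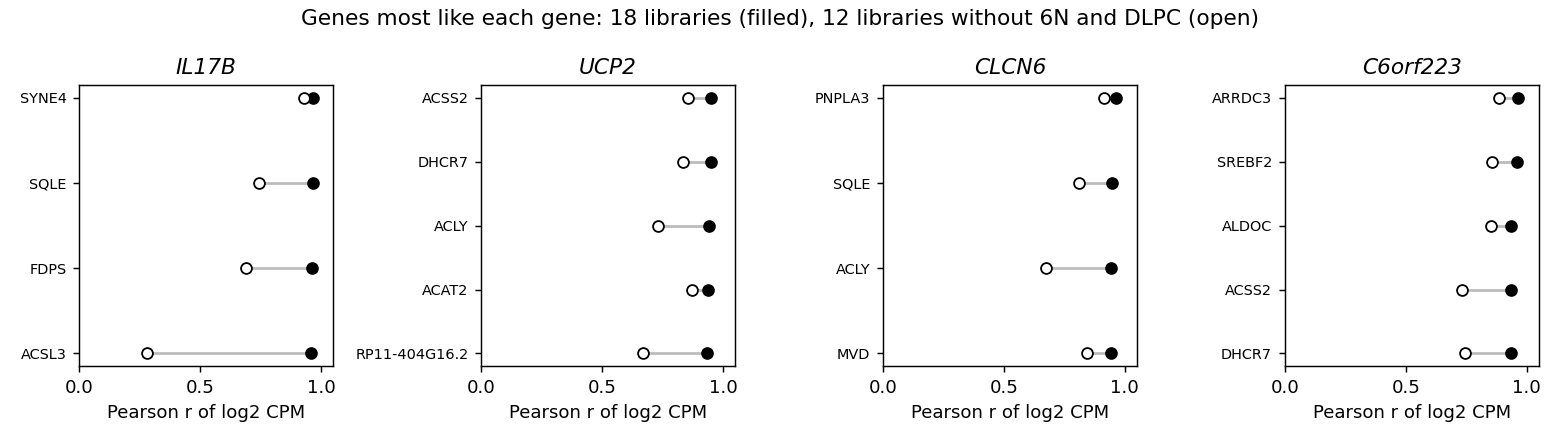
Pearson r of log2 CPM between each of the 4 genes and genes among its 5 nearest, over all 18 libraries (filled) and over the 12 without 6N and DLPC (open). Every r over 18 libraries is above 0.9, while those over 12 libraries run from 0.279 to 0.929.

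Part of the spread within groups went with the replicate number. C6orf223 was highest in replicate 1 in all 6 groups, by 0.37 log2 units above the group mean on average, and replicate 2 was below the group mean in all 6. UCP2 in replicate 3 was below the group mean in all 6 groups, by 0.08 on average, and IL17B in replicate 2 likewise, by 0.11. For CLCN6 no replicate number lay on the same side of the mean in all groups. The part of these shifts in the results was not tested beyond the fits with the replicate block.

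Genes that overlap the 4 can share their reads, since the strandedness of the libraries is not given in the sources used here. Genes on the other strand overlap both ends of CLCN6, among them NPPA, by 2371 bases and at a mean of 0.27 CPM. The gene at the other end is not reported here, and the level of NPPA says nothing of reads shared with it. PCYOX1L, on the other strand and 1670 bases from IL17B, averaged 6.17 CPM and stood at -0.53 (SE 0.17; edgeR adjusted p = 0.2318) with 6N and 0.40 (SE 0.16; adjusted p = 0.2763) with DLPC. Antisense RNAs also overlap IL17B and contain C6orf223 whole, and were not analysed here. UCP2 overlaps no annotated gene.

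Over the whole series the libraries held 28135967 to 34992442 counts, and replicates of a group differed by more than sampling noise. All 12 hepatocyte identity genes were tested and 0 were called in any comparison with a vehicle without the replicate block. With it 1 rose and 2 fell with 6N, 3 rose with DLPC and 2 rose with 6N-10CA against DMSO. In that fit 3.72%, 6.74% and 3.8% of tested genes were called in these comparisons. Of 14 markers of stromal, endothelial and blood cells 7 were tested, and KDR and HBB were at 0 in every group. The summed level of the 14, mostly LYZ, was 373 to 410 CPM in the 6N libraries and 428 to 446 CPM in the DMSO libraries, which do not overlap. It was 474 to 544 CPM with DLPC and 450 to 497 CPM with ethanol, in overlapping ranges. It was 423 to 468 CPM with 10CA and 400.1 to 403 CPM with 6N-10CA. Of the 7 tested, 0 were called against a vehicle without the block and 1, LYZ, was higher with 10CA than with 6N (log2 fold change 0.32, SE 0.07; edgeR adjusted p = 0.02937). With the block 1 of the 7 fell with 6N, 1 rose with DLPC and 1 fell with 6N-10CA against DMSO. The part of these markers in the results was not tested.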

How the data were processed

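A single table of raw counts, whole numbers for each gene symbol with no normalization, was deposited by the authors. The submitters' processing notes name GRCh38 and DESeq2. Nextera XT libraries of amplified cDNA were read as single reads of 100 bases, per the labels' protocols. Which aligner, counter and annotation were used, the strandedness and the time of treatment are unstated there.

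Genes were kept by edgeR's filterByExpr (minimum count 10, total 15), which left 14797. All 18 libraries entered a fit with 1 mean per group and TMM scaling, and 9 comparisons were made with the quasi-likelihood test of edgeR 4.0.16 (R 4.3.3), two-sided, with Benjamini-Hochberg adjustment and a threshold of 0.05. The biological coefficient of variation was 6.96%. SEs and 95% intervals come from that fit. CPM are TMM-scaled, and log2 CPM for correlations had a prior count of 2. Alternatives used DESeq2 1.42.0 and limma-voom (limma 3.58.1). The code was tested on simulated counts. Gene positions come from GENCODE 29, matched by symbol.

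The 4 genes and 8 gene lists were chosen with earlier results of these data known. For 5 comparisons, those that 6N or DLPC enter, no p is given for the 4 genes; 4 comparisons were tested. Genes were named as the 5 nearest by correlation, as the 10 with the largest difference among those called in both directions, and as called list members with the receptor and closest relatives of each gene. Some genes that these rules name are not reported here. Which vehicle goes with which compound was taken from knowledge of the study, since the labels leave it out.

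A floor of 3 counts corresponds to 0.0847 to 0.108 CPM. Such floors cover counting error only, since reads of amplified cDNA without molecular identifiers repeat molecules. The labels do not say whether replicates are separate cultures, so p-values reflect only how these samples vary, perhaps technically. No library was a copy of another (chi-square of 4.48 to 13.7 per gene between replicates). Replicate numbers come from the titles. Same-numbered libraries deviated together with correlations above 0.1 in every pair for 6N-10CA against DMSO (0.108 to 0.292), 10CA (0.150 to 0.354) and 6N (0.128 to 0.340). For these the fit with the replicate block is given beside the main fit, which has no replicate term. In the other comparisons at least 1 pair was below 0.1. All 45 correlations were positive, from 0.026 to 0.354, so that cut does not show the other comparisons to be unpaired.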

Additional observations from a re-analysis of the deposited data

How the results depend on the processing

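Of 492 alternative values of the 36 fold changes and differences of the 4 genes, 469 kept their direction, their side of the threshold and, where untested, their size within the spread; the causes of the exceptions were not tested. With the other vehicle, 6N gave -0.44 for UCP2 and -1.40 for C6orf223, DLPC gave 0.51 for UCP2, and the DLPC response minus the 6N response was 0.95 for UCP2 and 2.60 for C6orf223. With both vehicles averaged, UCP2 stood at 0.46 for DLPC and 0.85 for that difference. With the replicate block, calls were gained by UCP2 (0.20) and C6orf223 (0.60) for 6N-10CA against DMSO, and by UCP2 (0.21), CLCN6 (0.25) and C6orf223 (0.61) for 6N-10CA against 10CA; the block changed no other call of the 4 genes in a tested comparison. In limma-voom IL17B stood at -0.00151 for ethanol against DMSO.

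Leaving out each library in turn, the difference of responses ran from 1.67 to 2.00 for IL17B (highest without 6N replicate 1) and from 1.86 to 2.45 for C6orf223 (highest without ethanol replicate 1). For 10CA against DMSO UCP2 ran from -0.053 to 0.037 and C6orf223 from -0.21 to 0.21, and for 6N-10CA against DMSO IL17B ran from -0.093 to 0.021. For ethanol against DMSO IL17B ran from -0.069 to 0.068, CLCN6 from -0.023 to 0.063 and C6orf223 from -0.11 to 0.48. DESeq2 gave no adjusted p for 4 of the values.

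Counts of called genes moved more. With the block they were 551 for 6N (169 without it), 997 for DLPC (154), 562 for 6N-10CA against DMSO (39), 349 for 6N-10CA against 10CA (34), 32 for 10CA (0) and 18 for ethanol (0). DESeq2 gave 380 for DLPC, 173 for 6N-10CA against DMSO and 119 against 10CA. Without a filter on low counts there were 329, 126 and 154, and 20 for 10CA and 37 for ethanol. With only the compared groups fitted there were 13 for 6N-10CA against DMSO and 10 against 10CA. The other vehicle gave 265 for 6N, 380 for DLPC and 63 for 6N-10CA, and both averaged gave 270, 541 and 129. Leaving out a library gave 111 to 149 for 6N, 56 to 118 for DLPC, 12 to 23 for 6N-10CA against DMSO and 14 to 28 against 10CA. The 21 genes called lower with 6N and higher with DLPC numbered 84 with the block, 44 in DESeq2, 39 without the filter, 51 with the other vehicle, 60 with both averaged and 13 to 21 with a library left out (20 under RLE scaling). Of the 5 genes nearest to each of the 4, rank correlation kept 2 to 4 and correlation centred on replicate numbers 2 to 3. The likeness over 12 libraries was chosen after seeing the data. C6orf223 had 45 to 49 counts in 6N libraries, and its SE for 6N against DMSO was 0.18 with the block and 0.32 without it.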
